A study of Mus musculus with 127 samples.

Results

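Chromosome 14 of the mouse was followed here through 10 single nuclei of embryonic stem cells. All 10 kb windows assigned to chromosome 14 in the 20 deposited files of positions were taken, 67405 window listings of 1222168 on all chromosomes. Chromosome 14 spans 12181 possible windows from chr14:3000001-124810000 (mm10), of which 11917 were located in at least 1 file and 264 (2.17%) in none. A typical window was located in a median of 4 of the 10 nuclei, and 229 windows were located in all 10.

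The cells were F123, a mouse embryonic stem cell line of a CAST x 129 hybrid, grown with LIF on feeder cells and passaged without feeders before use, with no treatment. In sequential genome architecture mapping a nucleus is cut into serial slices, called nuclear profiles, the DNA of each slice is amplified and sequenced, and a stretch of genome is placed along the cutting axis by the slices that hold it. The files came from 122 profiles. Titles with the prefix B18F cover 6 nuclei, with 7 profiles of Cell26, 8 of Cell27, 8 of Cell28, 10 of Cell38, 11 of Cell39 and 15 of Cell25. Titles with the prefix B16F cover 4 nuclei, with 12 profiles of Cell19, 12 of Cell20, 16 of Cell18 and 23 of Cell17. The labels do not say what the prefix stands for. The other 5 samples, 4 positive controls and 1 negative control, have no file of positions and were not used here. Each nucleus has a file 0 and a file 1, whose meaning is not given in the sources used here, so neither is read as a parental copy. A file lists a window at most once, with 1 position in an axis unit that the file headers do not name. Every nucleus is 1 sample in the tests below, nothing says that the nuclei came from separate cultures, and all tests are two-sided exact sign-flip permutation tests unless another is named. With 10 nuclei such a test cannot give a p under 0.00195. Positions of DNA hold no expression, so the labelled cell type could not be checked against marker genes.

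Each chromosome of an interphase nucleus fills a territory of its own, and within it gene-dense stretches tend to lie apart from gene-poor ones. Mouse chromosome 14 carries the T cell receptor alpha and delta genes, the cardiac myosin heavy chain pair and, toward its distal end, long gene deserts between protocadherin and Slitrk genes, which encode neuronal membrane proteins. Near its centromere lies a dense array of near-identical gene copies that includes takusan, a family described in mouse neurons as a regulator of synapses.

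By the RefSeq table (GRCm38.p6, the assembly that mm10 is built on) the chromosome holds 850 protein-coding genes. That is 6.98 per Mb, against 8.64 per Mb on the other 18 autosomes, and 5th from the lowest of 19. Gene deserts, stretches of at least 500 kb with no protein-coding gene body, make up 34.7% of it, against 28.0% of the other autosomes, which is 4th from the highest. The gene copies are unevenly placed. Of the 850 genes, 80 lie between 3 and 8 Mb, where 77 have only a provisional Gm, LOC or Rik name, and 59 lie between 41 and 45 Mb, where 43 do. The remaining 711 genes give 6.30 per Mb.

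The sequences below show how alike the copies are. Whether reads that match several copies have a part in the densities given further on was not tested. They are the 250 bases before the first RefSeq transcript start, 5′ to 3′ on the strand of the gene, from RefSeq's GRCm38.p6 promoter table. Gm2977 (chr14:3503766-3504015, plus strand) and Gm3050 (chr14:3743159-3743408, plus strand) are predicted genes whose upstream stretches are identical over all 250 bases.
Gm2977: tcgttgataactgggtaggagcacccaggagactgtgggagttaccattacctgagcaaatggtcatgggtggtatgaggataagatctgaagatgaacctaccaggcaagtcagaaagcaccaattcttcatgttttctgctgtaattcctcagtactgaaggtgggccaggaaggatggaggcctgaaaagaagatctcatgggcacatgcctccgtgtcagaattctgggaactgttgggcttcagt
Gm3050: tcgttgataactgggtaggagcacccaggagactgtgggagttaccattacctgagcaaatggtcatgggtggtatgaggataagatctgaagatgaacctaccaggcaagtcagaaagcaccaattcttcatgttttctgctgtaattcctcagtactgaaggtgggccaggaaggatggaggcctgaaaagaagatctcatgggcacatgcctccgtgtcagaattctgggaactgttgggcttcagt
The RefSeq gene with the synonym takusan, 2610042L04Rik (chr14:4334513-4334762, plus strand), and Gm3411 (chr14:6287251-6287500, minus strand) are 92.4% identical, with 17 substitutions and 2 inserted or deleted bases. Capitals mark the bases at which this pair differs.
2610042L04Rik: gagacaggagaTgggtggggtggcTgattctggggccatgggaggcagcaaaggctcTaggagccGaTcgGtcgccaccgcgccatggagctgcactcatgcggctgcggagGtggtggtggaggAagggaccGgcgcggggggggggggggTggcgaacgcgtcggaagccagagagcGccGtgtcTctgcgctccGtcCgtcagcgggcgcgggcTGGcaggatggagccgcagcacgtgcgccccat
Gm3411: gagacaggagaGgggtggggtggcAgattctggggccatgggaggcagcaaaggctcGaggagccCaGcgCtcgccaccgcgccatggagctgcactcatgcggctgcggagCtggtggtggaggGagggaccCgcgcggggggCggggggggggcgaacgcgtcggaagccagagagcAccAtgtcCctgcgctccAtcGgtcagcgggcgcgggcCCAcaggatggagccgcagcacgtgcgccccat
Pcdh17, a protocadherin at the edge of a gene desert (chr14:84443313-84443562, plus strand), is shown as a gene with no such copy on the chromosome.
Pcdh17: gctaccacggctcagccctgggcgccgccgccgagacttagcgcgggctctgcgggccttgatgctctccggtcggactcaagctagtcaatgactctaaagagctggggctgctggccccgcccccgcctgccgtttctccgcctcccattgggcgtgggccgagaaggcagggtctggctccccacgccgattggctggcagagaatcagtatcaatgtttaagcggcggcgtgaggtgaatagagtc

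The 10 kb windows that hold the takusan and Gm3411 stretches were each located in all 10 nuclei, with 11 listings in the 20 files each. The windows of Gm2977 and Gm3050 were each located in 7 nuclei, with 8 and 7 listings. The window of Pcdh17 was located in 2 nuclei, with 3 listings. Pcdh17 is not typical of genes without a copy, since its mean density was the lowest of the 40 loci described below. Outside the stretches from 3 to 8 Mb and from 41 to 45 Mb, a window was located in a median of 4 nuclei. Over the 1092 gene symbols of chromosome 14 with a promoter of 300 bases in the table, 63 of 105 (60%) between 3 and 8 Mb had another promoter on the chromosome at least 90% identical to it. So did 44 of 78 (56.4%) between 41 and 45 Mb, and 19 of 909 (2.09%) elsewhere. Identical partners were found for 19, 6 and 6 promoters of these 3 groups.

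Coverage of chromosome 14 differed widely between nuclei. The 2 files together listed from 2238 windows in Cell39 to 12564 in Cell28, with a median of 6292. The share of windows located per file was 51.6% in Cell28, 37.7% in Cell25, 32.9% in Cell17, 30.3% in Cell27, 27.2% in Cell18, 24.5% in Cell26, 22.3% in Cell19, 21.1% in Cell20, 20.01% in Cell38 and 9.19% in Cell39. On the other 18 autosomes the same share ran from 11.02% in Cell39 to 35.9% in Cell25. Read counts are not in the files. Sequencing depth is therefore unknown, and the number of windows is the only measure of sampling.

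Chromosome 14 was denser than the other autosomes in 8 of 10 nuclei. The ratio of the 2 shares was 1.70 in Cell28, 1.51 in Cell18, 1.29 in Cell20, 1.19 in Cell27, 1.16 in Cell17, 1.05 in Cell25 and 1.04 in Cell38. Cell19 was level, with an excess of 1.40 listings in all, and the ratio was 0.919 in Cell26 and 0.834 in Cell39. Cell28 and Cell18 stand well above the rest, and Cell26 and Cell39 lie on the other side of 1. Chromosome 14 was the densest of the 19 autosomes in Cell28 and Cell20 and 2nd in Cell18, but 14th in Cell39. Over all nuclei the log2 ratio was 0.19 ± 0.32 (SD, n = 10), the highest mean of the 19 autosomes. It did not pass the exact sign-flip permutation test (p = 0.0879, p = 0.408 adjusted over 19 autosomes, higher in 8 of 10 nuclei). None of the 19 autosomes passed after adjustment (0%), and 1 (5.26%), chromosome 17, had an unadjusted p under 0.05 (exact p = 0.0195). Without Cell39 the log2 ratio of chromosome 14 was 0.24 (exact unadjusted p = 0.0273, n = 9). No other nucleus changed the unadjusted call when left out. File 0 alone also changed it with all 10 nuclei kept (0.25, exact unadjusted p = 0.0293).

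**Figure D1:**
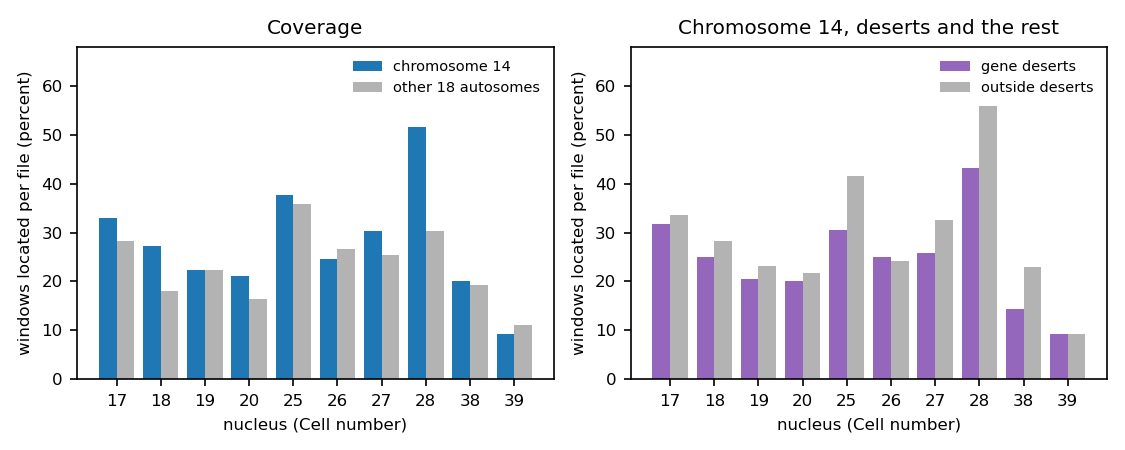
Left, the percent of windows located per file on chromosome 14 (blue) and on the other 18 autosomes (grey) in each nucleus. Right, the same percent within chromosome 14 for gene deserts (purple) and for windows outside deserts (grey). Cell28 has the highest bars for chromosome 14 (51.6%) and Cell39 the lowest (9.19%), and deserts lie below the rest of the chromosome in 9 of 10 nuclei.

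The segments that carry this density were of different kinds in different nuclei. In Cell28 and Cell18 all 24 segments of 5 Mb were above the level of all autosomes, with the lowest at 1.01 times that level in Cell28 and 1.04 times in Cell18. In Cell20 there were 21 such segments, in Cell17 19, in Cell27 15, in Cell25 and Cell38 14, in Cell19 10, in Cell26 8 and in Cell39 5. The excess of Cell28, 5191 listings above the number that the share of the other autosomes gives, lay for 4641 listings outside the 2 stretches of gene copies. In Cell18 the excess was 2221 listings, 1819 of them outside these stretches. With both stretches left out, chromosome 14 was denser than the other autosomes in 6 of 10 nuclei. The log2 ratio was then 0.13 (exact unadjusted p = 0.246). Both stretches were picked for their density, so leaving them out was set to lower this ratio.

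A single stretch was dense in every nucleus, the first 5 Mb that hold located windows. Between 3 and 8 Mb, the array of gene copies with takusan, the located share was 2.83 times that of all autosomes in Cell20, 2.53 times in Cell18, 2.27 in Cell28, 2.22 in Cell38, 2.001 in Cell19, 1.83 in Cell27, 1.76 in Cell17, 1.62 in Cell39, 1.499 in Cell25 and 1.42 in Cell26. Every nucleus was above 1, including the sparse Cell39. The stretch was in excess by 66.8 listings in Cell39 and by 409 in Cell28, with the other nuclei between. In Cell19, where the excess of the whole chromosome was close to 0, this stretch had 223 listings too many and the stretch from 41 to 45 Mb 72.1, while the rest of the chromosome stood at -293.2 listings relative to the level of the other autosomes. In Cell38 the rest of the chromosome was likewise below that level, at -65.6 listings, although the whole chromosome was above it by 183 listings. The 2 stretches were picked after their densities had been seen, so a lower remainder was favoured by that choice.

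Of 479 autosomal segments of 5 Mb, the segment from 3 to 8 Mb had the highest mean log2 ratio, 0.97 ± 0.33 (SD, n = 10), or a factor of 1.95. The next highest segment of any autosome had a factor of 1.40. It was above the autosomal level in 10 of 10 nuclei, which held for 2 of the 479 segments (0.418%). Its exact p was the smallest that 10 nuclei allow, 0.00195, shared by 5 segments, and with adjustment over 479 segments it was 0.170. No segment of any autosome passed after adjustment (0%). At an unadjusted p under 0.05, 4 of the 24 segments of chromosome 14 were higher, against 18 of all 479 (3.76%), and 0 of 24 were lower, against 64 of 479 (13.4%). Of the 24 segments, 18 (75%) had a mean above the autosomal level, against 157 of 479 (32.8%).

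The segments from 43 to 48 Mb and from 53 to 58 Mb were the next densest of chromosome 14. The segment from 43 to 48 Mb, which begins inside the second stretch of gene copies and holds Bmp4, had a factor of 1.28 (log2 0.36 ± 0.42, SD, n = 10). It was higher in 9 of 10 nuclei (exact unadjusted p = 0.0293, p = 0.238 adjusted over all segments). The segment from 53 to 58 Mb, which holds T cell receptor segments, the cardiac myosin genes and the granzyme genes and, with 112, the most protein-coding genes of the 24, had a factor of 1.28 (log2 0.35 ± 0.42). It was higher in 9 of 10 nuclei (exact unadjusted p = 0.0273, adjusted p = 0.230). Cell39 was the exception in both. The 3 sparsest segments lay in the distal, gene-poor part of the chromosome. From 93 to 98 Mb, with 4 protein-coding genes, the factor was 0.827, lower in 7 of 10 nuclei. From 108 to 113 Mb, with 3 genes, it was 0.880, and from 83 to 88 Mb, with 3 genes, it was 0.881. None of these 3 passed the exact test at an unadjusted p under 0.05 (p = 0.105, 0.143 and 0.299, adjusted p = 0.392, 0.439 and 0.610).

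In bins of 1 Mb, 89 of 122 bins (73%) had a mean density above the autosomal level, against 1048 of 2291 bins (45.7%) of the other autosomes. The 5 bins from 3 to 8 Mb were the only ones above it in all 10 nuclei, with means from 1.802 to 2.13 times the level, and the next bin, from 8 to 9 Mb, had a mean of 1.03. The edge was sharp in the data: 10 of 10 nuclei were above the level in the bin from 7 to 8 Mb, and 4 of 10 in the bin from 8 to 9 Mb. Another 4 bins were above the level in 9 nuclei. They began at 43 Mb in the second stretch of gene copies (mean 1.59), at 53 Mb within the T cell receptor locus (1.33), at 55 Mb in a bin with 42 protein-coding genes (1.55) and at 66 Mb (1.43). The sparsest bin began at 93 Mb, in Pcdh9 (mean 0.650). Outside both stretches of gene copies, 29 of 30 bins with at least 10 protein-coding genes had a mean above 1, and of the 16 bins without a protein-coding gene 11 (68.8%) had a mean below 1. On the other autosomes 452 of 754 bins (59.9%) with at least 10 genes had a mean above 1, and 141 of 193 (73.1%) without a gene a mean below 1, so the share of gene-free bins below 1 lay near that background. Across the 113 bins outside the copies, density and gene number correlated with a Spearman's rho of 0.668 in Cell38, 0.361 in Cell27, 0.346 in Cell28 and 0.318 in Cell25. The other nuclei lay between -0.085 in Cell20 and 0.240 in Cell19. Bins of a nucleus share its slices and its files, so these values describe the nuclei and carry no test.

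**Figure D2:**
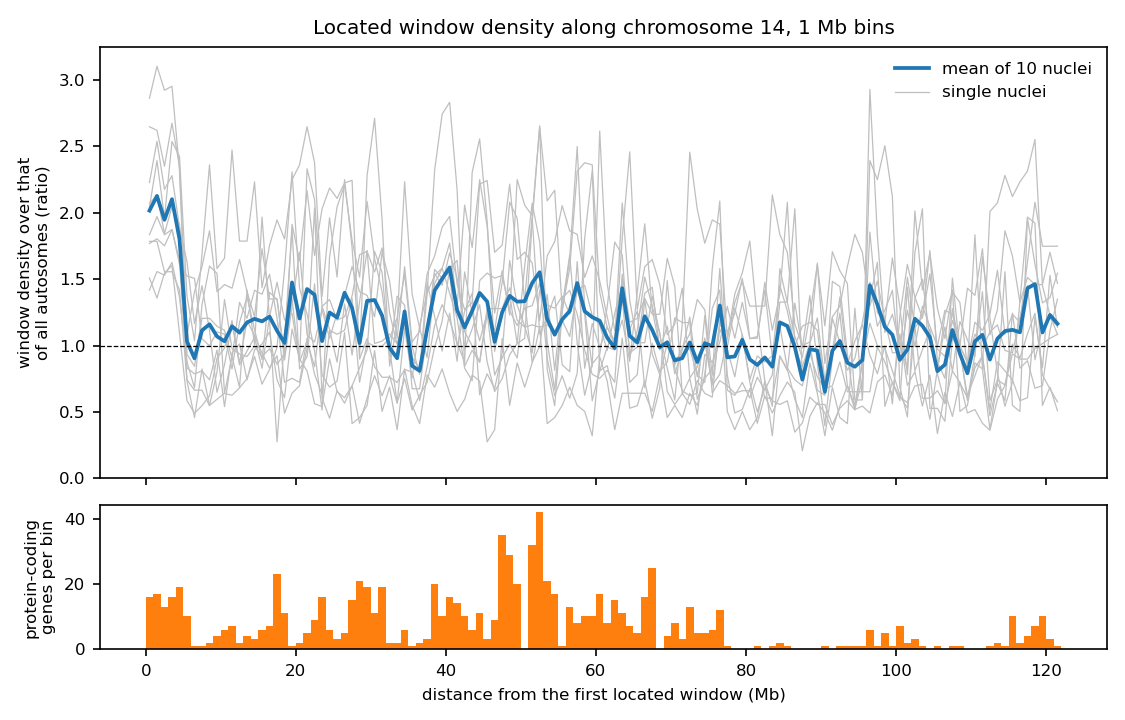
Top, located window density of 1 Mb bins of chromosome 14 over that of all autosomes in the same nucleus (files added), for each of 10 nuclei (grey) and their mean (blue), against the distance from the first located window. Bottom, protein-coding genes per bin. The first 5 bins have means from 1.802 to 2.13 and lie above 1 in every nucleus, and the distal, gene-poor part lies near or below 1.

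The stretch of gene copies from 3 to 8 Mb differed from the rest of the chromosome in more than density. It and the stretch from 41 to 45 Mb were picked out after their densities had been seen, so the values that follow are a description with no test. Most positions sit on a regular grid, 0.2 axis units from one slice position to the next, but a window can also lie between them. Cell18 has 17 grid positions for 16 profiles and Cell38 11 for 10, so a grid position there need not be 1 slice. In the other nuclei the counts are equal. Between 3 and 8 Mb a mean of 53.6% ± 20.1 of the listings lay between grid positions, against 27.4% ± 8.96 in the rest of chromosome 14 (SD, n = 10). The share was 78.1% in Cell28, 70.4% in Cell17, 67.1% in Cell18, 66.8% in Cell25, 58.2% in Cell27, 53.9% in Cell19, 50.8% in Cell38, 41.1% in Cell26, 40.9% in Cell20 and 8.47% in Cell39. In the rest of the chromosome it ran from 6.59% in Cell39 to 38.1% in Cell28. The share was higher between 3 and 8 Mb in all 10 nuclei, although in Cell39 only slightly. Over all 479 autosomal segments, whose median was 26.2%, this segment had the highest mean share of listings between grid positions and the next had 40.7%.

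The stretch was also split between the files. Between 3 and 8 Mb, windows common to both files numbered 0.529 ± 0.175 times what independent files would give, against 1.61 ± 0.370 times in the rest of the chromosome (SD, n = 10). It ran from 0.280 in Cell18 to 0.861 in Cell28, with a median of 0.538, and in the rest from 1.21 in Cell17 to 2.39 in Cell20, with a median of 1.503. No nucleus reached 1 between 3 and 8 Mb, and none fell under 1 in the rest. The mean ratio was the lowest of all 479 segments, whose median was 1.65 and of which 9 had a mean under 1. Windows that were in both files had the same position in both, within 1e-06 axis units, less often. Their share was 10.3% in Cell27, against 58.8% in the rest of the chromosome of that nucleus, 15.4% in Cell18, against 61.0%, and 0.459% in Cell28, against 31.7%. It was 83.3% in Cell39, where only 6 windows between 3 and 8 Mb were in both files, against 81.2%. In the other 9 nuclei the share was lower between 3 and 8 Mb.

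Few windows of the stretch were missed. Of its 500 windows, 240 were located in 9 or 10 nuclei and 0 in none, with a median of 8 nuclei per window. In the rest of the chromosome 558 of 11281 windows were located in 9 or 10 nuclei and 242 in none, with a median of 4. In Cell28 98.8% of the windows between 3 and 8 Mb were in at least 1 file, in Cell25 92.6% and in Cell17 92%, and even in Cell39 34.2% were, against 16.3% in the rest of its chromosome 14.

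In the second stretch, from 41 to 45 Mb, the mean density, the mean share of listings between grid positions and the mean ratio of shared windows lay between those of the first and those of the rest. Its density was 1.44 ± 0.482 times that of all autosomes (SD, n = 10), from 0.664 in Cell39 to 2.52 in Cell20, and it exceeded the rest of the chromosome in 8 of 10 nuclei. The share of listings between grid positions was 44.4% ± 13.04, above the rest in 10 of 10 nuclei. The ratio of shared windows was 0.742 ± 0.222, below the rest in 10 of 10 nuclei, although Cell20 (1.09) and Cell39 (1.08) stood above 1. Of its 400 windows, 67 were located in 9 or 10 nuclei, and 22 were located in none, against 242 of 11281 in the rest of the chromosome.

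**Figure D3:**
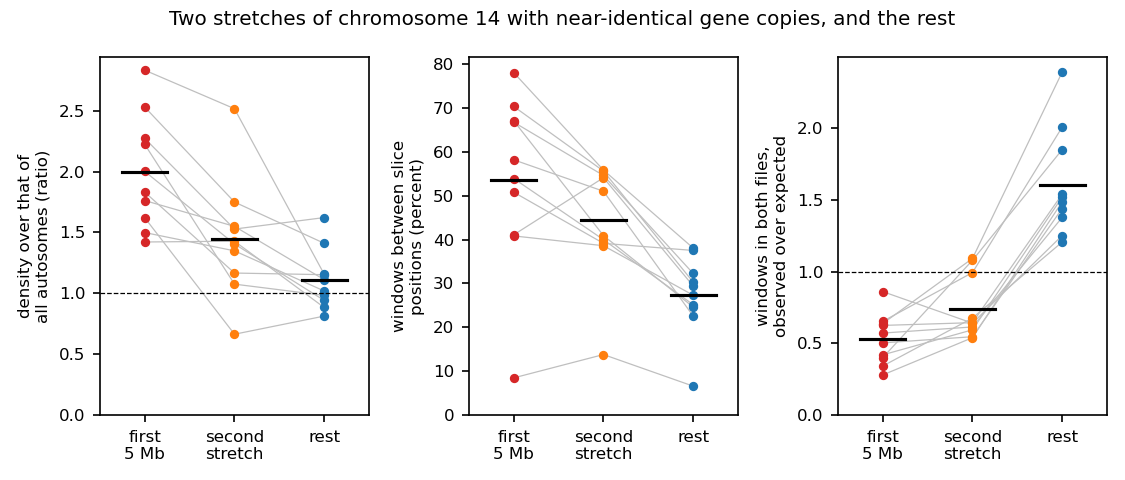
Values of 10 nuclei (points, joined by grey lines; black bars are means) for the first 5 Mb with located windows, the second stretch of gene copies (4 Mb) and the rest of chromosome 14. Left, window density over that of all autosomes; middle, the percent of listings between slice positions; right, windows in both files over the number expected of independent files. The first 5 Mb average 1.999 in density, 53.6% between slice positions and 0.529 in sharing, and the rest of the chromosome 1.11, 27.4% and 1.61.

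Gene deserts of chromosome 14 were located less often than its gene-holding segments. The share of desert windows located per file was 43.2% in Cell28, against 56.0% outside deserts, and 30.6% in Cell25, against 41.6%. The widest gap in proportion was in Cell38, with 14.4% in deserts, against 22.996% outside. In Cell39 the shares were 9.152% and 9.205%, and Cell26 was the only nucleus with more in deserts, 25.0%, against 24.2% outside. The ratio was below 1 in 9 of 10 nuclei, with a mean log2 of -0.23 ± 0.22 (SD, n = 10) and a factor of 0.851. This passed the exact sign-flip permutation test (p = 0.00586, p = 0.0176 adjusted over 12 results). With 3 to 8 Mb and 41 to 45 Mb left out, the log2 ratio was -0.15 and no longer passed (exact unadjusted p = 0.105). These stretches hold no desert windows and were picked for their density, so leaving them out was set to narrow the contrast. It cannot show that the call rests on gene copies. With the first 10 Mb of every autosome left out, the log2 ratio was -0.17 (exact unadjusted p = 0.0469).

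The contrast was larger on chromosome 14 than on the other 18 autosomes pooled, and single autosomes were not compared. On the other 18 autosomes together the desert share over the share outside averaged 0.970 ± 0.102, and it was under 1 in 5 of 10 nuclei. Minus that value, the log2 ratio of chromosome 14 was -0.18 ± 0.10 (SD, n = 10), lower in 10 of 10 nuclei (exact p = 0.00195, p = 0.0117 adjusted over 12 results). Without the gene copies of chromosome 14 it was -0.10 (exact unadjusted p = 0.0332). Its direction stayed, while a smaller size was set by leaving out dense windows outside deserts.

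The 30 deserts cover 42.5 Mb and were unlike each other. Here and for the loci that follow, density is given relative to that of the whole of chromosome 14 in the same nucleus, not of all autosomes. Mean density ran from 0.712 times that level between Klhl1 and Dach1 to 1.37 times between Klf5 and Klf12. Of the 30, 22 (73.3%) had a mean below 1, against 299 of 558 deserts (53.6%) of the other autosomes, each relative to its own chromosome, which was not tested. The longest desert, 4.54 Mb between Pcdh20 and Pcdh9 (chr14:88471397-93013699), had a mean of 0.810 ± 0.226 (SD, n = 10) and was below 1 in 9 of 10 nuclei. The next, 4.42 Mb between Olfm4 and Pcdh17 (chr14:80023142-84443562), had 0.805 ± 0.187 and was below 1 in 8 nuclei. The desert of 3.41 Mb between Slitrk5 and Gpc5 (chr14:111683145-115092200) had 0.838 ± 0.188, that of 2.77 Mb between Trim52 and Slitrk1 (chr14:106135863-108909987) 0.882 ± 0.359, and that of 2.12 Mb between Pcdh17 and Diaph3 (chr14:84537566-86655356) 0.752 ± 0.235, each below 1 in 8 of 10 nuclei. All 5 of the longest deserts thus had means under 1, and each was above 1 in at least 1 nucleus. The exceptions include the T cell receptor alpha and delta locus, which counts as a desert of 1.69 Mb (chr14:52541357-54235484) because its 175 gene segments are not annotated as protein-coding genes. It had a mean of 1.20 ± 0.229 and was below 1 in only 2 nuclei.

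Measured from the midpoint of the axis, deserts took no position of their own that could be told from the spread between nuclei. Distance from the midpoint of the axis, ranked over all autosomal windows of a nucleus as a percentile, averaged 47.3 ± 5.70 in deserts and 46.8 ± 4.61 outside (SD, n = 10). The difference was 0.516 ± 3.81 points, with 5 nuclei on each side of 0 (exact p = 0.758, adjusted p = 0.758). The outcome changed with the choice of centre: from the median position instead of the midpoint it was -3.13 points (exact unadjusted p = 0.00586). From that centre, deserts lay nearer on average than the rest of the chromosome. This was 1 of 12 alternatives for the result, and its p was not adjusted over them. Within deserts, windows under 500 kb apart lay 0.525 ± 0.299 axis units apart on average and outside deserts 0.525 ± 0.286 axis units. The log2 ratio was -0.06 ± 0.26, below 0 in 5 of 10 nuclei (exact p = 0.748, adjusted p = 0.758).

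Of 40 loci listed for their known roles, 17 were located in all 10 nuclei, and 21 had a mean density above that of the whole chromosome. They are described without a test, and small genes rest on 1 to 3 windows. Among growth regulators, Fhit, a tumour suppressor gene in a fragile stretch, had 810 listings over its 162 windows and a density of 0.887 ± 0.249 times that of chromosome 14 (SD, n = 10). Rb1, which encodes the retinoblastoma protein, a brake on the cell cycle, had 33 listings over 14 windows and a density of 0.437 ± 0.360, with 1 of 10 nuclei above 1. Ptprg, a receptor phosphatase gene, lay near 1 at 0.949 ± 0.388. A pair of hormone and retinoid receptor genes flanks 1 desert. The mean was 1.25 ± 0.586 for Rarb, a retinoic acid receptor gene, with 5 of 10 nuclei above 1. For Thrb, a thyroid hormone receptor gene, it was 0.827 ± 0.271, with 3 of 10 above 1. The spread between nuclei was wide, and the sparse Cell39 had the highest value for Rarb (2.64) and the lowest for Thrb (0.136, from 1 listing).

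The protocadherin genes of the distal deserts, which encode cell adhesion proteins of neurons, were among the loci with low means, as were Rb1 and Zic2, a transcription factor gene of 2 windows (0.492 ± 0.805). Pcdh9 had a density between 0.367 and 0.664 in every nucleus (mean 0.515 ± 0.0996), although it was located in all 10. Pcdh17 had 18 listings over 10 windows and a mean of 0.326 ± 0.286, and no nucleus was above 1. Pcdh20, with 8 listings over 2 windows, had 0.623 ± 0.688, with 4 of 10 nuclei above 1. Pcdh8, a small gene of 2 windows outside the long deserts, went the other way, with 9 of 10 nuclei above 1 and a mean of 2.28 ± 1.59. Dach1, a transcription cofactor gene of the same part, had 0.524 ± 0.387. The glypican genes Gpc5 and Gpc6, which encode heparan sulfate proteoglycans of the cell surface, had 0.820 ± 0.272 and 0.906 ± 0.407.

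In the gene-dense middle, the cardiac myosin heavy chain gene Myh6 had 37 listings over 3 windows, was above 1 in 9 of 10 nuclei and had a mean of 2.34 ± 1.09. Its neighbour Myh7, the second cardiac myosin heavy chain gene, had 28 listings and a mean of 1.75 ± 1.23. These 2 genes are close relatives, and whether reads matching both have a part in their values was not tested. The granzyme genes, which encode proteases of cytotoxic lymphocytes, had 1.44 ± 0.520 and the T cell receptor genes 1.13 ± 0.238. The ribonuclease and angiogenin genes, the first of which lies inside the second stretch of gene copies, had 1.20 ± 0.532. The olfactory receptor genes, of which 39 lie on the chromosome, were lower at 0.836 ± 0.208, with 3 of 10 nuclei above 1. Chd8, a chromatin remodeller gene, had 0.636 ± 0.423. The developmental signal genes Wnt5a (1.77 ± 0.961) and Bmp4 (1.53 ± 1.21) and the transcription factor genes Otx2 (1.34 ± 0.854) and Gata4 (1.14 ± 0.459) had means above 1, with a spread too wide to order them.

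The whole chromosome lay at a different place along the axis in each nucleus, and the direction of the axis cannot be compared between nuclei. As a percent of the sampled axis its mean position was 93.0% in Cell39, 54.5% in Cell25, 50.7% in Cell19, 49.999% in Cell18, 48.1% in Cell27, 44.3% in Cell20, 42.8% in Cell17, 41.2% in Cell38, 39.8% in Cell26 and 29.9% in Cell28. The other autosomes had 84.9% in Cell39, between 31.1% and 58.9% elsewhere, and 34.7% in Cell28. The last 2 slices of Cell39 held 93.8% of the chromosome 14 listings on the grid, against 84.2% of those of the other autosomes. In Cell25 a single slice of 15 held 45.3% of the chromosome 14 listings on the grid, against 18.4% of those of the other autosomes. In Cell26 the 4th of 7 slices held 44.0%, against 28.0%, and in Cell28 the third of 8 slices held 38.0%, against 24.8%. In Cell38 the fullest grid position for chromosome 14 held less of it, 34.1%, against 38.6%.

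Within a nucleus the mean positions of 1 Mb bins rose and fell along the chromosome, without a steady run along the axis. The lowest and the highest bin were 42.3 ± 8.63 percent of the axis apart (SD, n = 10), from 28.2 in Cell25 to 59.3 in Cell19. Split into 3 equal stretches, the chromosome had mean positions that differed by little, and the highest minus the lowest of the 3 was 6.17 ± 3.38 percent, from 1.58 in Cell20 to 11.4 in Cell19. The mean step between neighbouring bins was 7.31 ± 1.76 percent of the axis. Bin means rest on few listings in sparse nuclei such as Cell39. The part of sampling scatter in these ranges and steps was not tested. The start of the lowest bin ranged over the nuclei from 18 Mb in Cell39 to 100 Mb in Cell25, and that of the highest bin from 20 Mb in Cell27 to 108 Mb in Cell18.

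An excursion seen in both files, picked out after its values were seen, was that of Cell39. Its chromosome 14 bins lay above 89% of the axis from 20 to 23 Mb and above 95% from 15 to 16 Mb, but bins from 16 to 20 Mb lay lower, 2 of the 4 of them near the middle in both files. The bin from 16 to 17 Mb, which holds most of Rarb, had 57.0% in file 0 and 58.2% in file 1. The bin from 18 to 19 Mb had 54.0% in file 0 and 53.5% in file 1, with 43 listings in all. The bin between them had 55.6% in file 0 and 83.2% in file 1, and the bin from 19 to 20 Mb had 65.9% in file 0 and 85.1% in file 1. Rarb itself, with 32 listings in this nucleus, had a mean of 58.0%, while Fhit lay at 97.3% and the T cell receptor genes at 98.7%. Thrb, on the far side of the neighbouring desert, had only 1 listing in Cell39.

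The files of a nucleus gave similar paths to a varying degree. Across the 109 to 121 bins with windows in both files, the Spearman's rho between file 0 and file 1 was 0.798 in Cell28, 0.763 in Cell27, 0.680 in Cell19, 0.556 in Cell26, 0.481 in Cell17, 0.470 in Cell39, 0.461 in Cell18, 0.458 in Cell25, 0.286 in Cell38 and 0.085 in Cell20. With windows listed in both files left out, it ran from -0.018 in Cell20 to 0.411 in Cell27, with a median of 0.247. It was lower without these windows in 10 of 10 nuclei. A mean of 48.3% of them had the same position in both files, so leaving them out was set to lower the rho. Bins of a nucleus share its slices, so these values are descriptions with no test.

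**Figure D4:**
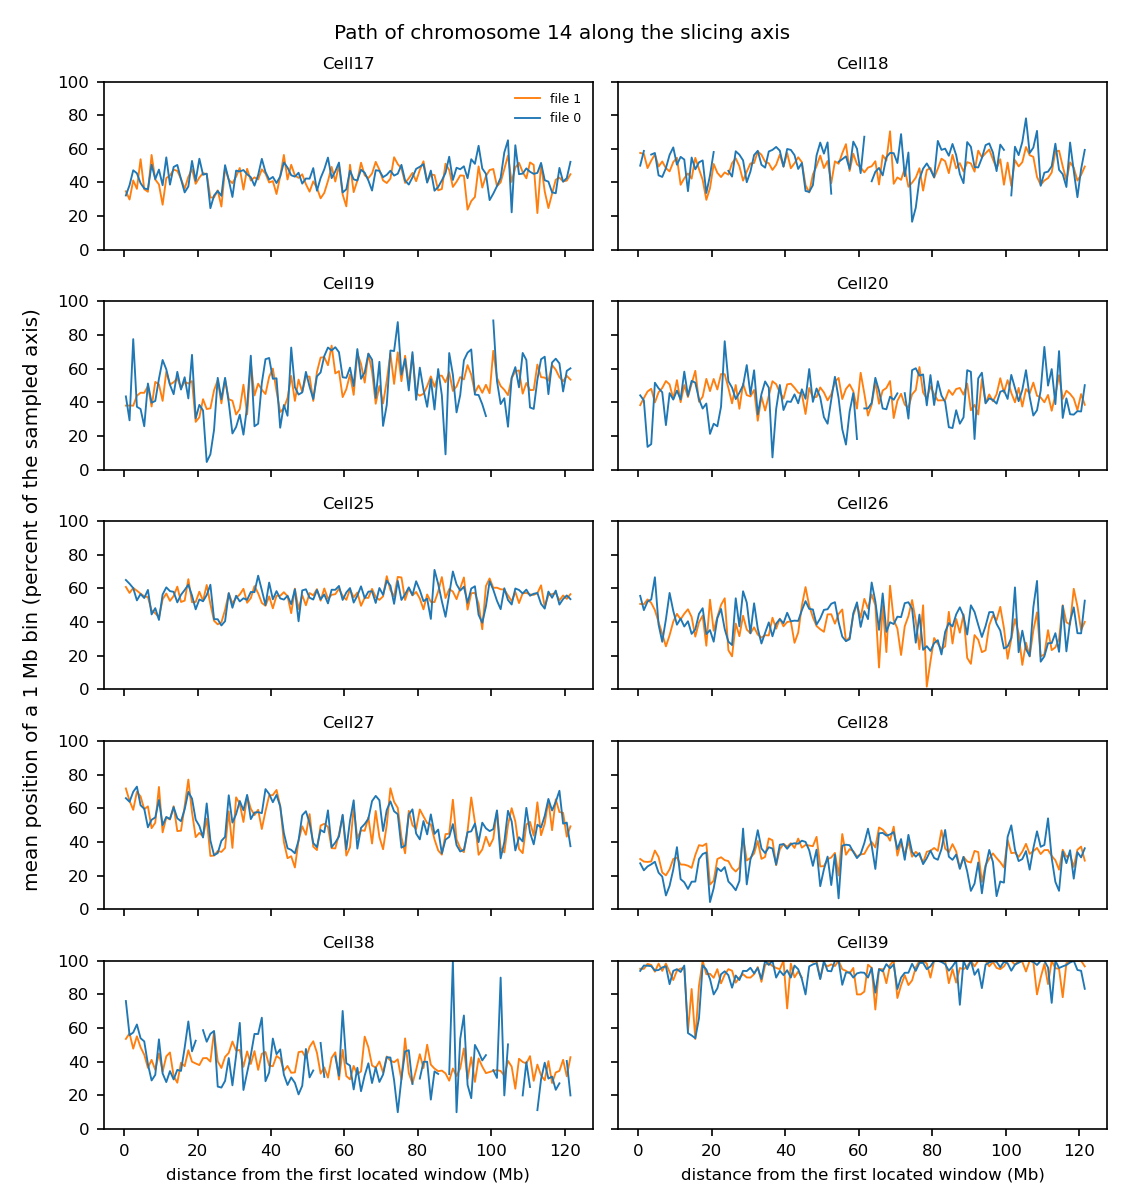
Mean position of 1 Mb bins of chromosome 14 as a percent of the sampled axis, against the distance from the first located window, for file 1 (orange) and file 0 (blue) of each of 10 nuclei. Cell39 lies mostly toward the upper end. Its lowest file 0 bins (54.0 to 57.0) lie about 13 to 15 Mb along, with scattered lower bins elsewhere. Bins of the other nuclei lie around their own middle levels.

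Windows of chromosome 14 lay nearer to each other than to windows of other autosomes. The mean distance within chromosome 14 was 0.226 axis units in Cell39, against 0.364 to other autosomes, 0.304 in Cell28, against 0.365, and 0.602 in Cell25, against 0.696. In Cell38 (0.595 against 0.580) and Cell19 (0.790 against 0.779) it was the wider of the 2 distances. The log2 ratio was -0.14 ± 0.22 (SD, n = 10), lower in 8 of 10 nuclei (exact p = 0.0176, p = 0.0352 adjusted over 12 results). Without Cell39 it was -0.08 (exact unadjusted p = 0.0352, n = 9). The difference from the mean of the other autosomes was -0.06 ± 0.12, lower in 7 of 10 nuclei, and did not pass (exact p = 0.186, adjusted p = 0.247). Without Cell39 that difference was -0.03.

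Close neighbours along the chromosome were also closer along the axis. Windows 0.5 to 1.5 Mb apart were nearer along the axis than windows over 20 Mb apart in 10 of 10 nuclei. The ratio was 0.795 in Cell39, 0.867 in Cell27, 0.869 in Cell25, 0.902 in Cell26, 0.913 in Cell19, 0.931 in Cell28, 0.958 in Cell20 and in Cell38, and 0.975 in Cell18 and in Cell17. On the log2 scale the mean was -0.13 ± 0.09 (SD, n = 10, exact p = 0.00195, p = 0.0117 adjusted over 12 results). The nuclei with the prefix B18F had -0.18 ± 0.09 and those with the prefix B16F -0.07 ± 0.04 (SD, n = 6 and n = 4), a difference of -0.11 that did not pass an exact permutation test (p = 0.0619 over 210 splits). It was the smallest such p of the 13 results compared between the prefixes.

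At 1 Mb, the mean distance on chromosome 14 was 0.849 ± 0.140 times that between different autosomes, against 0.877 ± 0.0805 on the other autosomes (SD, n = 10). At 50 Mb it was 0.919 ± 0.130 times, against 0.972 ± 0.0518. Chromosome 14 was the lower in 6 of 10 nuclei at each of 6 separations, and none of the 6 differences passed (exact p from 0.0957 to 0.369, adjusted p = 0.369 at each). The spread of chromosome 14 comes mainly from Cell39, whose ratio stayed between 0.499 and 0.624 at all 6 separations.

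**Figure D5:**
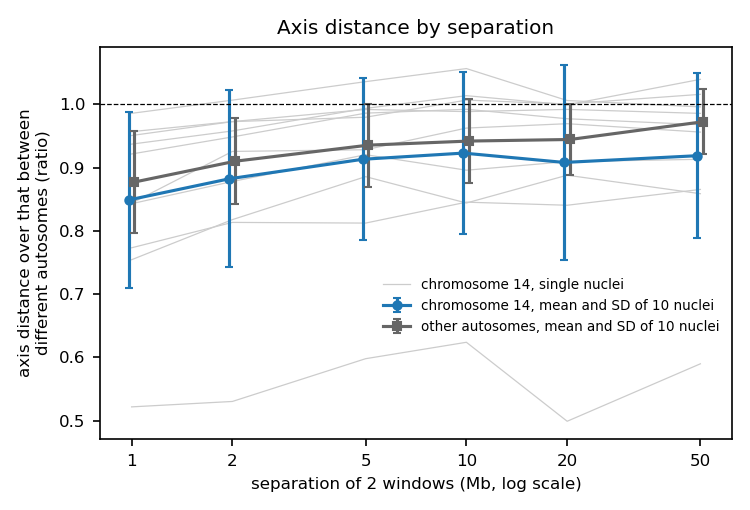
Mean distance along the axis between windows of 1 chromosome at separations from 1 to 50 Mb (log scale), over the distance between windows of different autosomes. Chromosome 14 is in blue and the other autosomes in dark grey (mean and SD of 10 nuclei), with single nuclei of chromosome 14 in light grey. The means for chromosome 14 lie from 0.849 to 0.923, those of the other autosomes from 0.877 to 0.972, and the error bars overlap at every separation.

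Nearby chromosome 14 windows of different files were on average nearer to each other than windows of different files on different autosomes. The nearness of chromosome 14 windows as a whole enters this comparison, so it does not isolate nearby windows. For windows under 2 Mb apart the log2 ratio was -0.19 as well. With windows listed in both files left out, a file 0 window and a file 1 window under 500 kb apart on chromosome 14 were 0.1997 axis units apart in Cell39, against 0.341 for a file 1 window of another autosome, and 0.324 in Cell28, against 0.416. In Cell38 alone the nearby windows were the farther apart, 0.585, against 0.575. The log2 ratio was -0.19 ± 0.23 (SD, n = 10), lower in 9 of 10 nuclei (exact p = 0.00391, p = 0.0156 adjusted over 12 results). It was -0.28 ± 0.28 in nuclei with the prefix B18F and -0.07 ± 0.02 in those with the prefix B16F. The difference from the mean of the other autosomes, -0.08 ± 0.13, lower in 7 of 10 nuclei, did not pass (exact p = 0.0977, adjusted p = 0.158).

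Both files listed the same window of chromosome 14 more often than independent files would. The ratio was 2.09 in Cell20, 1.83 in Cell19, 1.67 in Cell39, 1.44 in Cell27, 1.37 in Cell38, 1.36 in Cell26, 1.32 in Cell18, 1.30 in Cell25, 1.21 in Cell28 and 1.11 in Cell17. All 10 nuclei were above 1. Relative to the other autosomes it was -0.12 ± 0.12 on the log2 scale (lower in 8 of 10 nuclei, exact p = 0.0137, p = 0.0328 adjusted over 12 results). Without the stretches of gene copies this difference was 0.01 (exact unadjusted p = 0.910). The first of them had the lowest mean ratio of all 479 segments, so leaving it out was set to narrow the deficit. It cannot show that the deficit rests on these stretches alone. The share of identical positions among windows in both files averaged 48.3% ± 18.6 on chromosome 14 and 49.3% ± 15.3 on the other autosomes.

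The split of chromosome 14 between the files did not differ detectably from that of the other autosomes. File 1 held 59.3% ± 12.8 of its listings, against 61.0% ± 11.9 of those of the other autosomes (SD, n = 10), a difference of -1.70 ± 2.96 points, lower in 7 of 10 nuclei (exact p = 0.105, adjusted p = 0.158). Neighbouring windows that only 1 file lists were in the same file in 91.5% ± 5.40 of cases, against 59.6% ± 10.5 from the file sizes alone. This excess of 31.8 ± 9.61 points was 32.4 ± 10.2 points on the other autosomes, and the difference of -0.60 ± 2.06 points, lower in 6 of 10 nuclei, did not pass (exact p = 0.447, adjusted p = 0.537). Without Cell39 it was -0.05 points.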

How the data were processed

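Per the labels' protocols, single F123 nuclei were sliced, the DNA of each slice was amplified genome-wide, and libraries ran on a HiSeq X instrument. Trim Galore 0.6.4, Bowtie2 2.3.5, Picard and the mm10 build are named in the submitters' processing notes. The deposited files hold 10 kb windows with a position in another unit than a count, unnamed per the file headers. How the authors turned reads into positions, treated reads matching several places, or split files 0 and 1 is not given in the sources used here.

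Files were used as deposited (Python 3.11.15, numpy 2.4.6, pandas 2.3.3; promoter alignment with edlib 1.3.9.post1). The located share is listings over possible windows times 2 files. Windows before 3 Mb do not occur. Segments are 5 Mb from 3 Mb on, and the last 181 windows were left out of segments. A distance is the absolute difference of positions of single windows of the same file, and the mean of the files. Values per nucleus were tested against 0 over 1024 sign patterns. With 6 nuclei the test cannot give a p under 0.0312, and with 4 nuclei not under 0.125. Benjamini-Hochberg adjustment was over 19 autosomes, 479 segments, 6 separations and the 12 other results. The computation was checked on simulated data with shuffled and planted positions.

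Members, loci, lists and tests were chosen with earlier results of these data known. Loci were a list of known chromosome 14 genes, segments the 3 densest and 3 sparsest, deserts the 5 longest, and other deserts and bins were named after their values were seen. Alternatives were each file alone, distinct windows, other desert and segment sizes, grid windows only, outer positions left out, other distance limits, each prefix alone and each nucleus left out. Leaving out 3 to 8 and 41 to 45 Mb, and ending deserts at immune gene segments, were chosen after seeing the data.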

Additional observations from a re-analysis of the deposited data

Results flagged for a closer look

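In 5 of the 13 results with a value per nucleus, Cell39 stood apart from the other 9 nuclei, with a gap to its nearest neighbour too wide for the range of the group by Dixon's test at the 95% level. Chance flags about 1 in 20 groups, and these 5 come from 1 nucleus and share its windows. The log2 ratio of distances within chromosome 14 to those to other autosomes was -0.70 in Cell39, the lowest of 10. The log2 ratio for nearby windows of different files was -0.77, also the lowest, as was the log2 ratio of neighbour distances in deserts to those outside, -0.78. The distance of deserts from the midpoint, minus that of the rest of the chromosome, was 9.78 percentile points, the highest. The excess of neighbouring windows in the same file, minus that of the other autosomes, was -5.54 points, the lowest. Cell39 also had the fewest chromosome 14 listings, 2238, and 66.4% of those on the grid lay at 1 slice position. The part of this low and uneven sampling in the 5 values was not tested.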

How the results depend on the processing

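Across the alternatives, no segment of chromosome 14 passed after adjustment, which says nothing about stability, since the smallest possible p, 0.00195, came to 0.170 when adjusted over 479 segments. The separation result and the desert contrast relative to other autosomes kept their direction and their call except in the 4 B16F nuclei, where no call is possible. The log2 density ratio of chromosome 14 was 0.25 in file 0 alone (exact p = 0.0293) and 0.15 in file 1 alone (exact p = 0.234). It was 0.13 without both stretches of gene copies (exact p = 0.246) and ran from 0.13 to 0.24 with 1 nucleus left out. With both stretches of gene copies left out, the desert contrast was -0.15 and the sharing difference 0.0063. With the median as centre, the desert distance was -3.13 points, on grid windows only -0.117, without the outermost positions -0.227, and with 1 nucleus left out from -0.512, without Cell39, to 1.004. Desert neighbour distance was 0.0153 without the outermost positions and ran from -0.0846 to 0.0169, without Cell39, with 1 nucleus left out. File agreement relative to other autosomes was -0.10 for windows under 2 Mb apart (exact p = 0.0391). It was -0.03 with windows in both files kept (exact p = 0.492) and -0.04 without the gene copies (exact p = 0.291). On grid windows only it was -0.07 (exact p = 0.164). In B18F nuclei alone, desert contrast (-0.30), proximity (-0.22), file agreement (-0.28) and sharing (-0.12) lost their calls. In B16F nuclei alone the values were -0.14 for desert contrast, -0.19 relative to other autosomes, -0.0228 for proximity, 0.0104 for proximity relative to other autosomes, -0.0666 for separation, -1.44 for desert distance, 0.0446 for desert neighbour distance, -0.0665 for file agreement, 0.0014 for file agreement relative to other autosomes, -0.13 for sharing and 0.18 for file blocks. Fewer nuclei raise the smallest p; other causes were not tested. A correction for base composition was not run, as no genome sequence was used here. Depth limits the locus values, since genes of 1 to 3 windows can have at most 6 listings in a nucleus, and Cell39 has the fewest listings. No paired analysis was possible across groups because each holds 1 nucleus, and chromosomes were compared within each nucleus throughout.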
